A study of Mus musculus with 4 samples.

Results

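Genes that specify or mark the excitatory projection neurons of the cerebral cortex were examined for nearby binding of CTCF, a zinc finger protein that, with cohesin, shapes chromatin loops and the borders of domains. The set was chosen by name, with earlier results of these data known. It held 8 of the 21883 protein-coding genes with a position on the main mouse chromosomes: Fezf2, Bcl11b, Tle4, Cux1, Rorb, Bhlhe22, Slc17a6 and Slc17a7. Peaks inside these genes or within 100 kb of them were taken from 2 deposited lists, made from a CTCF chromatin immunoprecipitation and sequencing library of the medial ganglionic eminence (MGE) and a CTCF library of the telencephalon, both labelled embryonic day 13.5. The labels give no strain, genotype or number of embryos for either tissue. They mention MGE dissection alike in all samples, which leaves unknown whether the MGE was part of the telencephalon tissue. Input libraries of both tissues belong to the series and are not analysed here. Peaks of the lists that had at least 1 bp in common are called shared.

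Projection neurons arise from progenitors of the dorsal telencephalon, release glutamate and send their axons to other cortical areas or out of the cortex. The MGE lies in the ventral telencephalon and produces interneurons that release GABA and migrate into the cortex. Layer identity in projection neurons is set by transcription factors that repress each other's programmes, and the vesicular glutamate transporters are the products that make these cells excitatory. Neither tissue is a pure population of projection neurons. The lists hold positions without expression values, so the tissue labels could not be set against marker genes.

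With 1 CTCF library per tissue there was no replicate, and differences between the tissues were not tested. Tissue cannot be told apart from library kit, which also differed between them. The lists hold 25625 MGE peaks and 31886 telencephalon peaks on chromosomes 1 to 19, X and Y, with no height, score or read depth, so a site without a peak may lie below the calling limit. Shares have 95% intervals by the exact Clopper-Pearson method, and these reflect counting error and nothing else. Positions are 1-based mm10 coordinates. The gene table gives the outer ends of genes without exons, so a peak inside a gene could not be placed in an exon, intron or UTR.

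The 8 genes and their flanks spanned 2.42 Mb and held 44 MGE peaks and 50 telencephalon peaks. Of the MGE peaks, 29 were shared (65.9%, interval 50.1 to 79.5%), against 58.4% of the whole MGE list. Of the telencephalon peaks, 29 were shared (58.0%, interval 43.2 to 71.8%), against 47.0% of the whole telencephalon list. Both intervals include the share of their whole list, and both shares rest partly on Slc17a7. Without that gene 19 of 34 peaks were shared in each list (55.9%, interval 37.9 to 72.8%). The median member had 5 MGE peaks and 4 telencephalon peaks in its window, where the median protein-coding gene had 3 and 5. Per Mb of window the medians were 16.7 and 15.6 at the members, against 13.5 and 19.6 over protein-coding genes.

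**Figure D1:**
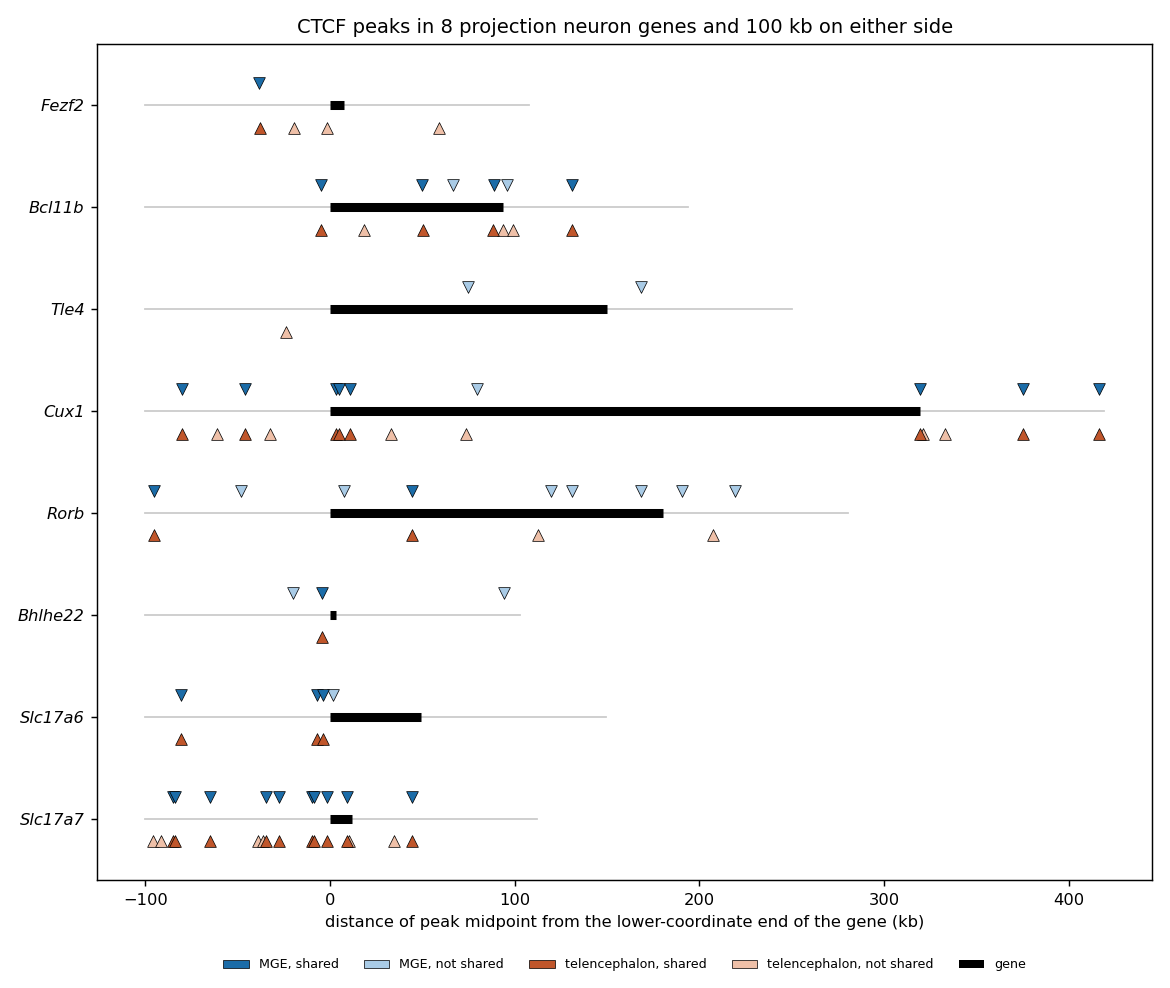
Positions of CTCF peaks at the 8 genes, in kb from the lower-coordinate end of each gene (black bar), with MGE peaks above the line and telencephalon peaks below it; dark triangles are shared peaks and pale ones are not. Bcl11b, Cux1 and Slc17a7 have shared peaks inside and on both sides, Tle4 has none, and the pale MGE peaks crowd at Rorb.

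All 8 members had peaks of both lists in their windows, as did most protein-coding genes (90.5% in MGE and 88.9% in telencephalon). All but Tle4 had a shared peak there, against 78.7% of protein-coding genes. A peak lay inside 6 of 8 members in MGE (31.4% of protein-coding genes) and inside 4 of 8 in telencephalon (39.1%). Several members are far longer than the median protein-coding gene of 17170 bp, so the count of genes with a peak inside cannot be read against that background without regard to length. Counting the gene body and 10 kb of flank, 7 of 8 members had a peak in each list, against 51.3% of protein-coding genes in MGE and 61.3% in telencephalon. The exceptions were Fezf2 in the MGE list and Tle4 in the telencephalon list. The count with 10 kb of flank takes in the gene body, so the same regard to length is needed there.

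Few members had a CTCF peak within 1 kb of a gene end, and 8 genes are too few to place these shares closely. Cux1 alone had such a peak in the MGE list (1 of 8, interval 0.316 to 52.7%, against 12.1% of protein-coding genes). Cux1 and Bcl11b had one in the telencephalon list (2 of 8, interval 3.19 to 65.1%, against 19.3%). With 5 kb on either side of an end the counts were 5 of 8 in MGE (29.6% of protein-coding genes) and 6 of 8 in telencephalon (40.9%).

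Fezf2 encodes a zinc finger repressor that directs the fate of deep-layer neurons projecting to the spinal cord and brainstem. The gene lies at chr14:12338992-12346803 on the minus strand. Its window held 1 MGE peak and 4 telencephalon peaks, the lowest MGE number among the 8 genes. The single shared site lay at chr14:12300676-12300934 in MGE and at chr14:12300757-12301004 in telencephalon, 38057 bp and 37987 bp from the gene, inside the neighbouring gene 3830406C13Rik. A 271 bp peak at chr14:12337292-12337562, 1429 bp beyond the 3′ end of Fezf2, was in the telencephalon list, and the nearest MGE peak lay 36357 bp from it. The remaining telencephalon peaks, 193 and 150 bp wide, lay inside 3830406C13Rik and Cadps. Fezf2 itself contained no peak in either list.

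Bcl11b, also known as Ctip2, encodes a zinc finger factor that acts downstream of Fezf2 in corticospinal neurons and is also used by striatal neurons. It spans chr12:107910403-108004145 on the minus strand, with no other protein-coding gene within 100 kb. Its window held 6 MGE peaks and 7 telencephalon peaks, of which 4 in each list were shared. A shared peak of 466 bp in MGE (chr12:107998806-107999271) and 362 bp in telencephalon (chr12:107998761-107999122) lay inside the gene, with its midpoint 5107 bp and 5204 bp from the 5′ end. Another shared site lay inside the gene at chr12:107960395-107960638 in MGE and chr12:107960526-107960746 in telencephalon. The others stood outside, 4677 bp and 4736 bp beyond the 3′ end, and 37339 bp and 37462 bp before the 5′ end. The lists parted inside the gene and at its 5′ end. Inside, unshared peaks lay at chr12:107976740-107976983 in MGE (244 bp) and at chr12:107928615-107928817 in telencephalon (203 bp). At the 5′ end the MGE list had a 278 bp peak 2154 bp before it (chr12:108006300-108006577). The telencephalon list had a 294 bp peak across it (chr12:108004037-108004330), and 1969 bp separated these peaks. A further telencephalon peak of 179 bp stood 5088 bp before the 5′ end (chr12:108009234-108009412), 2656 bp from the nearest MGE peak. The RefSeq promoter window of Bcl11b lies within the gene, 2635 bp from the MGE peak and 372 bp from the telencephalon peak.

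Tle4 encodes a Groucho-type co-repressor and marks neurons that project from the deepest cortical layer to the thalamus. At chr19:14448072-14598183 it was the member with the fewest peaks over both lists: 2 in MGE and 1 in telencephalon, none shared. The MGE peaks lay inside the gene (chr19:14522978-14523221) and 18385 bp before its 5′ end (chr19:14616569-14616812), and both had the narrowest width of that list, 244 bp. The telencephalon peak, 238 bp wide, lay 23720 bp beyond the 3′ end at chr19:14424114-14424351, and among telencephalon peaks of at least 244 bp the nearest lay 402169 bp from the gene. The gene is 150112 bp long, so its low count was not that of a short window. In its window there were 5.71 MGE peaks and 2.86 telencephalon peaks per Mb, against medians of 13.5 and 19.6 over protein-coding genes.

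**Figure D2:**
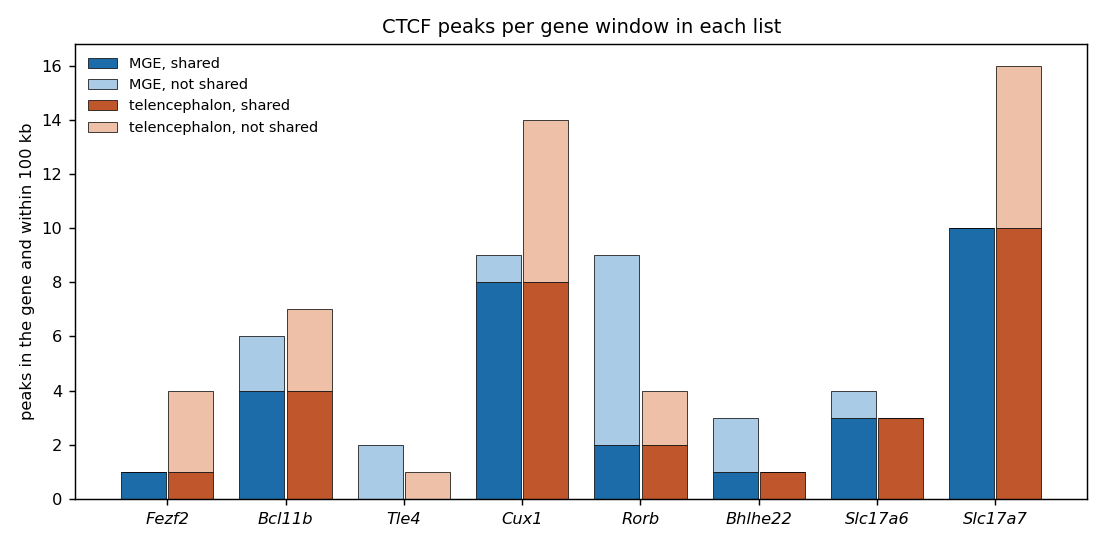
Number of CTCF peaks in each gene and within 100 kb of it, with MGE bars left of telencephalon bars; dark segments are shared peaks and pale segments are not. Slc17a7 and Cux1 carry the tallest dark segments, 10 and 8, and Rorb is the gene with the most unshared MGE peaks, 7.

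Cux1 encodes a homeodomain factor of upper-layer neurons that promotes their dendrite branching. With 319456 bp it was the longest member (chr5:136248135-136567590, minus strand), and its window held 9 MGE peaks and 14 telencephalon peaks. In each list 8 were shared, so that a single MGE peak, 244 bp wide, had no partner. A shared peak covered the outermost 5′ end of the gene, at chr5:136567392-136567893 in MGE (502 bp) and chr5:136567539-136567805 in telencephalon (267 bp). The RefSeq promoter window of Cux1 lies further inside the gene, 1160 bp from the MGE peak and 1307 bp from the telencephalon peak. At the 3′ end 3 shared peaks stood in a row, within 8.18 kb in MGE and 8.23 kb in telencephalon, and the innermost was the widest peak at any member in either list: 635 bp in MGE (chr5:136258598-136259232) and 744 bp in telencephalon (chr5:136258629-136259372). Between these groups the gene body held 1 MGE peak and 2 telencephalon peaks, none shared. The telencephalon list also had an unshared 276 bp peak 1320 bp before the 5′ end (chr5:136568911-136569186), 1017 bp from the nearest MGE peak.

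Rorb encodes a nuclear receptor that marks the layer receiving thalamic input. The gene, at chr19:18930609-19111196 on the minus strand, showed the largest excess of MGE over telencephalon peaks among the members: 9 in MGE and 4 in telencephalon, with 2 shared in each. A shared site was inside the gene at chr19:18975061-18975385 in MGE and chr19:18975097-18975363 in telencephalon. The other lay inside Trpm6, 95300 bp and 95266 bp beyond the 3′ end. Of the 7 MGE peaks without a partner, 4 were 244 bp wide and the widest was 310 bp (chr19:19121119-19121428, 9922 bp before the 5′ end). Among protein-coding genes, 5.05% had as many MGE peaks in their window as Rorb or more, and 64.0% had as many telencephalon peaks or more. These ranks take no account of length, and at 180588 bp Rorb is far longer than the median gene. Per Mb its window held 23.6 MGE and 10.5 telencephalon peaks, against medians of 13.5 and 19.6 over protein-coding genes. No peak stood within 1 kb of either end of Rorb in either list.

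Bhlhe22 encodes a basic helix-loop-helix repressor that contributes to the area identity of postmitotic projection neurons. This short gene of 3190 bp (chr3:18054325-18057514) had 3 MGE peaks and 1 telencephalon peak in its window. The shared site lay 4366 bp from the gene in MGE (chr3:18049644-18049958) and 4431 bp from it in telencephalon (chr3:18049662-18049893). The telencephalon peak was 232 bp wide, and among telencephalon peaks of at least 244 bp the nearest lay 183024 bp from the gene. The other MGE peaks were both 244 bp wide, 19615 bp and 91185 bp away, the farther inside Cyp7b1. The strand of Bhlhe22 was not used here.

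Slc17a6 and Slc17a7 encode vesicular glutamate transporters, which fill synaptic vesicles with glutamate. Slc17a6, at chr7:51621830-51671126 on the plus strand, had 4 peaks in MGE and 3 in telencephalon, and 3 of either list were shared. A pair of shared peaks stood close together before its 5′ end. The outer was 567 bp wide in MGE (chr7:51614289-51614855) and 556 bp in telencephalon (chr7:51614351-51614906). The inner was 321 bp wide in MGE (chr7:51618027-51618347, 3482 bp from the gene) and 220 bp in telencephalon (chr7:51618022-51618241, 3588 bp from the gene). The remaining MGE peak was 244 bp wide and lay inside the gene at chr7:51623307-51623550. No peak of either list lay above the gene within 100 kb.

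Slc17a7, at chr7:45163921-45176139 on the plus strand, had 10 MGE peaks and 16 telencephalon peaks in its window. All 10 MGE peaks were shared, and this was the densest window of the 8, with 47.1 MGE peaks and 75.4 telencephalon peaks per Mb. It was also the most crowded with genes: 15 other protein-coding genes lay in or reached into the window, against 0 to 3 for the other members. Of protein-coding genes, 3.04% had as many MGE peaks or more in their window and 1.96% as many telencephalon peaks or more. Peaks within 1 kb of an end of any protein-coding gene numbered 7 of 44 in MGE and 9 of 50 in telencephalon over all members. Of these, 6 in MGE and 7 in telencephalon lay in the Slc17a7 window, at Nosip, Rpl13a, Flt3l, Aldh16a1 and Dkkl1 in both lists. The nearest peak outside the gene was a shared one 1373 bp before its 5′ end in MGE (chr7:45162199-45162547, 349 bp) and 1388 bp before it in telencephalon (chr7:45161943-45162532, 590 bp).

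Inside Slc17a7 a shared peak lay at chr7:45173060-45173423 in MGE and chr7:45173068-45173317 in telencephalon, toward the 3′ end. It overlapped the annotated microRNA gene Mir7055 (chr7:45173303-45173361, plus strand), whose hairpin is shown because it is the sequence used here that lies under a peak within a member. The RefSeq hairpin (GRCm38.p6, the build with mm10 coordinates) is written 5′ to 3′, with capitals for the 15 bases that also fall in the telencephalon peak; all 59 bases fall in the MGE peak.
Mir7055 hairpin: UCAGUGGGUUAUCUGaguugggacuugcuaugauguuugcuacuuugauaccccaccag
A further telencephalon peak of 225 bp inside Slc17a7 (chr7:45173878-45174102) had no MGE partner and lay 454 bp from the nearest MGE peak.

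RefSeq promoter windows, which run from 250 bases before a transcript start to 50 bases after it, were available for 7 of the 8 members, 10 windows in all. None of the 10 was overlapped by a peak in either list. Over all 32851 promoter windows 3.83% were overlapped in MGE and 6.46% in telencephalon. The core letters of the known CTCF motif, taken as CCA, any 2 bases, AG, any 2 bases and GGC, were searched on both strands and were in none of the 10 windows. They were in 2.43% of all windows, in 16.3% of those overlapped by an MGE peak and in 12.7% of those overlapped by a telencephalon peak. A match is a run of letters and not a shown binding site. A promoter window of each transporter gene is given below for the bases before the start. These windows are set beside a window under a shared peak in the neighbourhood of Slc17a7.
Slc17a7 (chr7:45163671-45163920, plus strand): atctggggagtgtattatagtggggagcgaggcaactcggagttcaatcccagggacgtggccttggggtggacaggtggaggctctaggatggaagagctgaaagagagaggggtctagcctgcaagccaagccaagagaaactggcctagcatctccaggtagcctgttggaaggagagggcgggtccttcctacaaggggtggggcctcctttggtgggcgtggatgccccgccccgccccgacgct
Slc17a6 (chr7:51621580-51621829, plus strand): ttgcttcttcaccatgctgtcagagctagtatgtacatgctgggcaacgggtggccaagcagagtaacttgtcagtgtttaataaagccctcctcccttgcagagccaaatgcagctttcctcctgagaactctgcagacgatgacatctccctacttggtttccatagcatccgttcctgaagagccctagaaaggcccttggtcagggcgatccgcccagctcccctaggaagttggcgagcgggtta
The nearest MGE peak stood 1123 bp from the Slc17a7 promoter window and the nearest telencephalon peak 1138 bp from it. For this Slc17a6 window the distances were 1427 bp and 3338 bp. Another Slc17a6 promoter window, not shown (chr7:51624387-51624686), lay 836 bp from the nearest MGE peak and 6145 bp from the nearest telencephalon peak.

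Promoter windows of 3 neighbours of Slc17a7, Rpl13a, Flt3l and Aldh16a1, were overlapped by shared peaks, and the motif letters were present in the Flt3l window. The Flt3l peak was 584 bp wide in MGE (chr7:45136281-45136864) and 521 bp in telencephalon (chr7:45136234-45136754), 27056 bp and 27166 bp below Slc17a7. The same 12 letters stood in the promoter window of Pcp4, a calmodulin-binding protein gene used as a marker of deep-layer projection neurons, which also lay under a shared peak (chr16:96467429-96467889 in MGE and chr16:96467380-96467936 in telencephalon). Both are shown up to the outer end of the gene, 5′ to 3′ on the strand of the gene, with the motif letters in capitals.
Flt3l (chr7:45136491-45136682, minus strand): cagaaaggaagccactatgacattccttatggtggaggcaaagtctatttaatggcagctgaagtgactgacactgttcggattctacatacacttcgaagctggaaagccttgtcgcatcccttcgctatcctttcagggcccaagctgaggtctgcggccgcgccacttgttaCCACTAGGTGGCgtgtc
Pcp4 (chr16:96467356-96467605, plus strand): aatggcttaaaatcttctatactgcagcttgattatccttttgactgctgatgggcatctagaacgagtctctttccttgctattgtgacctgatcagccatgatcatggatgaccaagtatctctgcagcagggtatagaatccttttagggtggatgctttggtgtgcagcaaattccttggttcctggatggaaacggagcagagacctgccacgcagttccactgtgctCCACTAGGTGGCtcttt
Both runs lay inside the peak of each list and ended 5 bases from the outer end of the gene. From the transcript start of the promoter window they ended 63 bases away at Flt3l and 5 bases away at Pcp4. At Flt3l the run was centred 71.0 bp from the midpoint of the MGE peak and 7.5 bp from that of the telencephalon peak. At Pcp4 these distances were 64.5 bp and 63.5 bp. Flt3l was singled out after its window was seen to hold the motif. A match to the motif was not always under a peak. Plxnd1, from the list of other projection neuron genes given below, had a match in its promoter window, which no peak of either list overlapped. The peaks closest to the Plxnd1 window were at distances of 12591 bp (MGE list) and 12608 bp (telencephalon list).

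Unshared peaks at the members were narrow, most plainly in the MGE list, as unshared peaks were in the whole lists. Of 15 MGE peaks without a partner 11 had that list's narrowest width of 244 bp (73.3%, interval 44.9 to 92.2%), as had 56.2% of all unshared MGE peaks. Among the 29 shared MGE peaks at the members 4 were that narrow. Unshared telencephalon peaks had a median width of 227 bp over 21 peaks (150 to 358 bp), against 289 bp over 29 shared peaks (150 to 744 bp). The median MGE widths were 244 bp for unshared peaks (244 to 310 bp) and 321 bp for shared peaks (244 to 635 bp). Over the whole MGE list these medians were 244 bp for unshared and 345 bp for shared peaks. Over the whole telencephalon list they were 223 bp and 346 bp. Inside the genes 8 peaks of each list were shared, and 7 of the 8 unshared MGE peaks there were 244 bp wide.

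**Figure D3:**
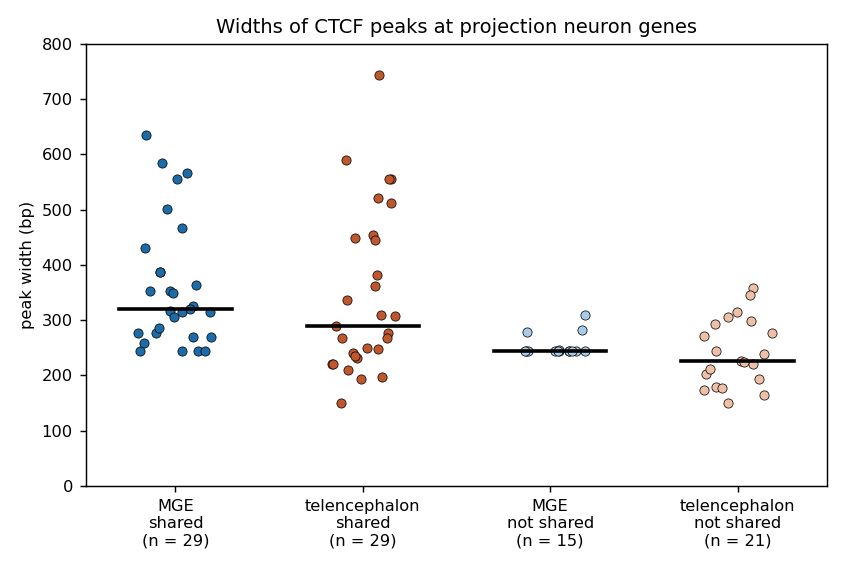
Width in bp of every CTCF peak at the 8 genes, with a bar at the median of each group and MGE left of telencephalon. Unshared MGE peaks lie on or near the floor of 244 bp and none exceeds 310 bp, while shared peaks of both lists spread up to 635 and 744 bp.

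The pairs were chosen for overlap, which by itself keeps midpoints near each other, so the values that follow describe the pairs and support nothing. Over the 29 pairs the midpoints were a median of 55.5 bp apart (0 to 136 bp) and the overlap had a median of 267 bp (113 to 604 bp). The MGE peak was the wider of the pair in 19 cases and the telencephalon peak in 10. At Slc17a7 the sequence of narrow and wide partners was mixed: the MGE peak at chr7:45154985-45155228 was 244 bp wide and its telencephalon partner 512 bp, while at the peak inside the gene the widths were 364 and 250 bp.

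CTCF sites on either side of a gene are of interest because paired sites can anchor loops. The nearest shared peaks below and above each member, measured between their MGE positions, were 45.8 kb apart at Slc17a7 and 1510 kb apart at Rorb, the extremes of the set. The median over the 8 members was 292 kb, and over protein-coding genes it was 218 kb. Each interval includes the gene itself, so these medians cannot be compared without regard to gene length. Shared peaks inside a gene, present in Bcl11b, Cux1, Rorb and Slc17a7, did not end an interval. Bcl11b was the only protein-coding gene lying in or reaching into its interval of 136 kb, and Tle4 likewise in its interval of 1054 kb, with nearest shared peaks 466499 bp below and 437428 bp above the gene. Of protein-coding genes, 13.6% had an interval at least as long as that of Tle4. The Bhlhe22 interval of 109 kb also held part of Cyp7b1. Its lower border is the shared site whose telencephalon peak was 232 bp wide. The intervals were not measured again with a limit on peak width. The Slc17a6 interval of 354 kb also held all or part of Fancf and Gas2. The Fezf2 interval was 230 kb long and the Cux1 interval 421 kb. These intervals describe peak positions, and no contact between their ends was measured.

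**Figure D4:**
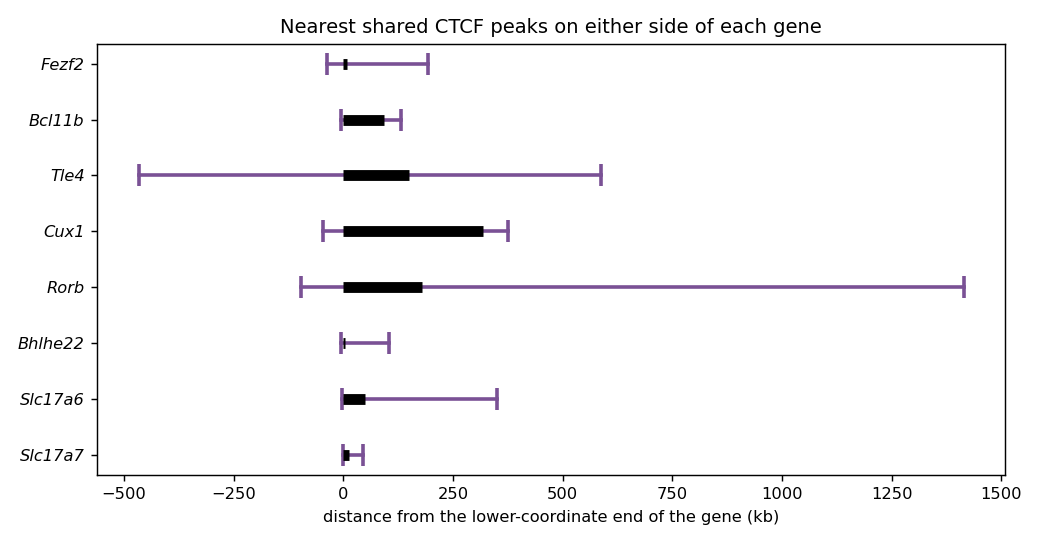
Interval between the nearest shared CTCF peaks on either side of each gene (ticks, by their MGE positions), in kb from the lower-coordinate end of the gene (black bar). Slc17a7 and Bhlhe22 sit in short intervals and Rorb and Tle4 in intervals of more than a megabase, with the Rorb interval extended on 1 side.

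Other genes of projection neurons were taken as a list of 23, all found in the gene table. In MGE, 4 of them had a peak within 1 kb of a gene end (17.4%, interval 4.95 to 38.8%), against 12.1% of protein-coding genes. In telencephalon, 5 did (21.7%, interval 7.46 to 43.7%), against 19.3%, and 3 genes were in both counts. Tbr1, a T-box factor of deep-layer neurons, had a shared peak at its 3′ end (chr2:61814997-61815271 in MGE and chr2:61815013-61815235 in telencephalon), and Pcp4 had the one described above. Pou3f2, a POU factor of upper-layer neurons, had peaks at opposite ends of the gene: a 657 bp peak at the 3′ end in MGE (chr4:22482890-22483546) and a 222 bp peak at the 5′ end in telencephalon (chr4:22488047-22488268). Crym, which encodes a thyroid hormone binding protein and marks subcerebral neurons, had a 244 bp peak in MGE (chr7:120185294-120185537). Neurod6, a basic helix-loop-helix factor of postmitotic excitatory neurons, had 222 and 150 bp peaks in telencephalon (chr6:55676941-55677162 and chr6:55678696-55678845). Etv1, an ETS factor of deep-layer neurons, had a 153 bp peak in telencephalon (chr12:38780198-38780350). Windows of these 23 genes do not overlap one another. In them 44 of 77 MGE peaks were shared (57.1%, against 58.4% of the whole list) and 44 of 118 telencephalon peaks (37.3%, against 47.0%). The telencephalon share lay below that of its list here and above it at the 8 members (58.0%), and the difference was not tested.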

How the data were processed

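CTCF ChIP-seq peak lists of MGE and telencephalon, 1 library per tissue, were used. Per the labels' protocols, sonication gave fragments of about 500 bp, and New England Biolabs kits that differed between the tissues were used for the libraries. The submitters' processing notes name Bowtie2 2.3.2, MACS2 2.1.1.20160309 and mm10. How peaks were thresholded, filtered or set against input is not given in the sources used here. Each line deposited by the authors gives the position of 1 peak, without score or other value. Per the file headers, the track names carry p01 for MGE, and p001 with e14 for telencephalon. What these mean is not stated, so stage or threshold may also differ between the lists.

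Peaks outside chromosomes 1 to 19, X and Y were set aside, 85 MGE and 93 telencephalon peaks. Counts, overlaps of at least 1 bp and distances (bases between gene and peak, 0 inside) were computed with Python 3.11.15, pandas 2.3.3 and numpy 2.4.6, intervals with scipy 1.17.1, and the overlap code was tested on simulated data. Gene ends came from RefSeq on GRCm38.p6, and strand and promoters from the matching RefSeq promoter table, which held 7 of the 8 members. Overlapping promoter windows on opposite strands matched as reverse complements in 1839 of 1839 pairs. Depth per sample is unknown. All 8 members and all gene-end peaks of the other lists are named by rule, and neighbours only to place a peak. Plxnd1 is named for the motif in its promoter window. The members and lists were chosen with earlier results of these data known. Alternatives were windows, gene-end sizes, overlap rules, width limits, list length and the genes counted.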

Additional observations from a re-analysis of the deposited data

How the results depend on the processing

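Changing the rule for sharing, the window or the list length left the shares of shared peaks within the 95% intervals of the main values. The exception was a limit to peaks at least 244 bp wide. As 244 bp is the narrowest MGE width, this limit removed telencephalon peaks only, and the MGE share could not rise. The MGE share was then 45.5% (20 of 44 peaks). Of the 29 telencephalon peaks kept, 69.0% were shared (20 of 29), which lies within the interval of the main value. Under this limit Bhlhe22 lost its only shared site, as the telencephalon peak there is narrower. The nearest telencephalon peak then lay 183024 bp from Bhlhe22 and 402169 bp from Tle4, against 4431 bp and 23720 bp with all peaks. Windows of 10 kb held 25 MGE and 24 telencephalon peaks, and windows of 20 kb held 27 and 26. The wider 50% of each list left 20 MGE and 23 telencephalon peaks, reduced the telencephalon genes with a gene-end peak to 1, and moved the median distance from gene to nearest peak to 1741 bp in MGE (0 bp with all peaks) and to 51095 bp in telencephalon (714.5 bp with all peaks). Gene ends of 5 kb gave 5 members in MGE and 6 in telencephalon. Counting all annotated genes in place of protein-coding genes lowered the background of gene-end peaks to 8.34% in MGE and 13.0% in telencephalon, and that of peaks within 100 kb to 86.2% and 83.2%. No paired analysis was possible because each tissue has 1 CTCF library. Peak lists carry no depth or score, so width stood in for a stricter threshold.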

Other observations

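Relatives of the members in the same gene families, a list of 10, included some with a gene-end peak in MGE (2 of 10, interval 2.52 to 55.6%, against 12.1% of protein-coding genes) and some with such a peak in telencephalon (4 of 10, interval 12.2 to 73.8%, against 19.3%). Both intervals include the share of all protein-coding genes. Cux2, the relative of Cux1 in upper-layer neurons, had a shared peak of 401 bp in MGE (chr5:122050255-122050655) and 402 bp in telencephalon (chr5:122050307-122050708) at its 5′ end, where Cux1 also had a shared peak. Bcl11a, the relative of Bcl11b, had a 244 bp peak at its 3′ end in MGE (chr11:24173437-24173680) and peaks of 459 and 258 bp near its 5′ end in telencephalon (chr11:24076194-24076652 and chr11:24077313-24077570), none shared. Tle3, a co-repressor related to Tle4, had a 534 bp telencephalon peak over its promoter window (chr9:61371941-61372474), and the nearest MGE peak stood 1751 bp from that window. Rora, the relative of Rorb, had a 172 bp telencephalon peak over its promoter window (chr9:68653722-68653893), with the nearest MGE peak 35586 bp from the window. Windows of 100 kb around the 10 relatives counted 36 of 53 MGE peaks as shared (67.9%, against 58.4% of the whole list) and 37 of 90 telencephalon peaks (41.1%, against 47.0%).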
